A study of Venturia canescens with 6 samples.

Results

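A group of 56 gene models with moderate to high read levels in wasp heads was about 1.4 to 2 times higher in a sexual than in an asexual population of Venturia canescens. The members were chosen by their measured values in the same 6 libraries, out of 22333 gene models in the table. A member had a mean of at least 80 and under 1000 counts per 1000000 counts of its library (CPM) over the 6 libraries. Its mean CPM in the sexual pools was at least 1.4 and under 2 times its mean CPM in the asexual pools, and its lowest sexual pool lay above its highest asexual pool. Models numbered g2001 to g5500 and from g20001 on were left out. The direction, the size of the ratio and the separation of the populations were therefore fixed by the choice and are given as a description, without a test.

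The heads came from adult females, frozen as they emerged, of a sexual population (3 pools of 30 heads) and an asexual population (3 pools of 30 heads). Poly(A) RNA of each pool was sequenced in a strand-marking library. Which populations these were is not stated in the labels, and with pools of a sexual and an asexual population only, reproductive mode and any other difference between the populations cannot be told apart. The pools are called biological replicates, but no source says whether they came from separate cultures. The p-values set the difference between populations against the spread between these pools, which may be partly technical.

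Venturia canescens is a parasitoid wasp whose females lay their eggs in moth caterpillars. In its sexual populations fertilised eggs give daughters and unfertilised eggs give sons, while asexual females produce daughters from unfertilised eggs. The head holds the brain, the compound eyes and the antennae, which carry the sense of smell used in finding hosts. In RNA of whole heads, fewer cells of a type and less RNA per cell cannot be told apart.

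The 22333 identifiers had 0 matches in the RefSeq gene table of the species, so the members are given by number only and no function is attached to them. For the same reason the tissue label was not checked against marker genes. A CPM value is not corrected for the length of a model, and an order of CPM between models is an order of reads, not of transcripts. Library totals lay between 9265064 and 13117716 counts, and a member had at least 463 counts in every library. In models nearly absent from their sister pools, sexual replicate 3 and asexual replicate 1 stood apart. Among models with at most 1 count in both sister pools and at least 20 counts in every pool of the other population, 19 reached 6.99% of their asexual level in sexual replicate 3 and 25 reached 5.21% of their sexual level in asexual replicate 1. In the remaining 4 libraries such models, 4 to 14 in each, reached 0% to 1.58%. The number of models chosen, the calls and the spread between pools are therefore also given without them.

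The level window held 2339 models of the allowed numbers. In 357 of them (15.3%) the lowest sexual pool lay above the highest asexual pool, and in 434 the asexual pools lay wholly above the sexual ones. A ratio of 1.4 to under 2 was reached by 64 models, of which 8 had overlapping populations and 56 were members. Applied without sexual replicate 3 and asexual replicate 1, the rule chose 57 models, of which 40 were members. The rule turned round, with the asexual population higher, chose 49 models. Members made up 2.54% of the window models at 80 to under 100 CPM (12 members), 2.33% at 100 to under 200 CPM (25 members), 1.49% at 200 to under 400 CPM (8 members) and 4.26% at 400 CPM or more (11 members). The median level of members, 154 CPM, was close to that of the 2283 other models of the window, 149.6 CPM. The median ratio of the other models was 1.00.

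**Figure D1:**
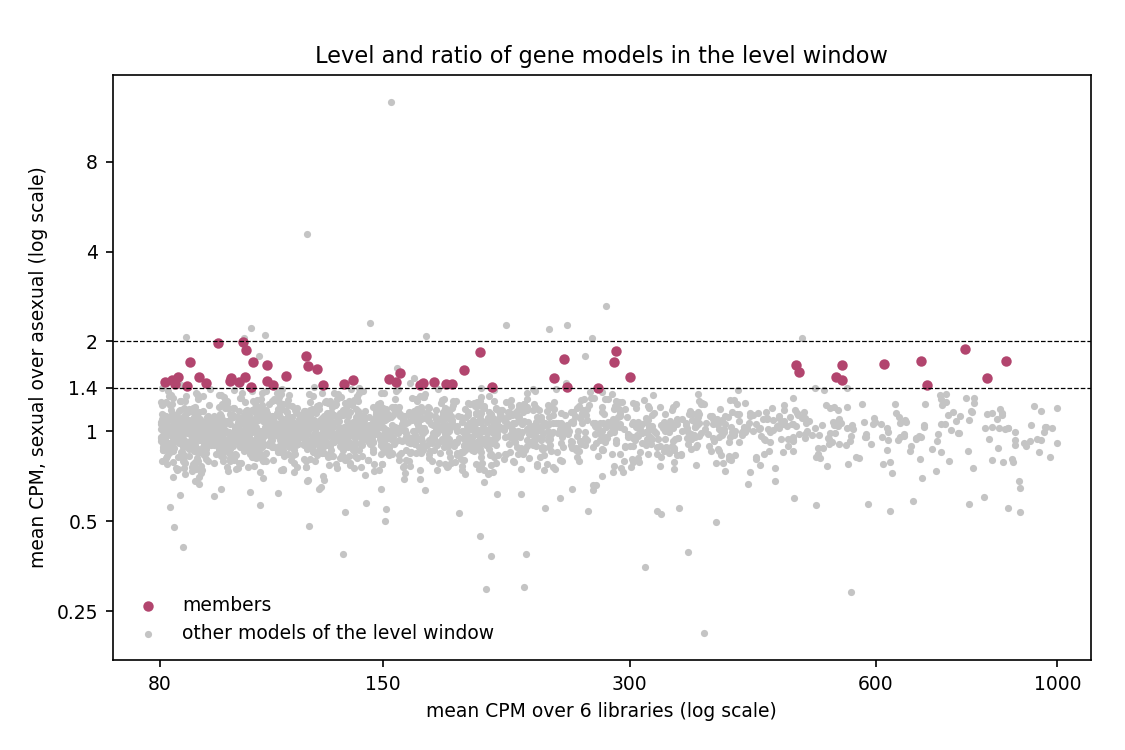
Mean CPM over 6 libraries against the ratio of mean CPM in sexual over asexual pools, both on log scales, for 56 members (dark pink) and 2283 other models of the level window (grey). Dashed lines mark the ratios 1.4 and 2, between which the members lie. Grey points between the lines are the 8 models whose populations overlap.

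The members with the most reads were g15025, g16754, g6231 and g9960, by mean CPM. Model g15025 had 816, 1431 and 1041 CPM in sexual replicates 1, 2 and 3, against 672, 783 and 453 CPM in asexual replicates 1, 2 and 3. Model g16754 had 812, 1159 and 984 CPM in the sexual pools, against 738, 666 and 558 CPM in the asexual pools. In both models sexual replicate 1 was the lowest sexual pool, 1.04 times (g15025) and 1.101 times (g16754) the highest asexual pool, and asexual replicate 3 was the lowest of all.

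Model g6231 had 952, 1049.5 and 1025 CPM in the sexual pools, against 435, 603 and 562 CPM in the asexual pools. Its sexual pools were close together, with a mean of 1009 ± 50.6 CPM in sexual pools and 533 ± 87.8 CPM in asexual pools (SD, n = 3 each), and the ratio of the means was 1.89. Model g9960 had 955, 762 and 730.4 CPM in the sexual pools, against 602, 579 and 529 CPM in the asexual pools. Here sexual replicate 1 was the highest and the other sexual pools were close to each other.

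Most members lay near the lower end of the ratio window. The ratio was 1.4 to under 1.5 in 25 members, 1.5 to under 1.6 in 11, 1.6 to under 1.7 in 7, 1.7 to under 1.8 in 7, 1.8 to under 1.9 in 4 and 1.9 to under 2 in 2. The median ratio was 1.52 (0.60 on the log2 scale). It was 1.48 in members of 80 to under 100 CPM, 1.49 at 100 to under 200 CPM, 1.52 at 200 to under 400 CPM and 1.66 at 400 CPM or more.

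The widest ratios were found in g1005, g17059, g6231 and g9229. Model g1005 had 148, 121 and 135 CPM in the sexual pools, against 49.97, 77.2 and 74.9 CPM in the asexual pools, with a ratio of 1.998 that was just under the upper limit. Model g17059 had 142, 104 and 129.7 CPM in the sexual pools, against 57.2, 57.7 and 74.9 CPM in the asexual pools, with a ratio of 1.98. Model g9229 had 155, 120.1 and 124 CPM in the sexual pools, against 60.1, 78.8 and 73.7 CPM in the asexual pools, with a ratio of 1.88. In these 3 models sexual replicate 1 was the highest and sexual replicate 2 the lowest sexual pool, and asexual replicate 1 was the lowest asexual pool. In g1005 the lowest sexual pool was 1.57 times the highest asexual pool, in g9229 1.52 times and in g17059 1.38 times.

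The narrowest ratios belonged to g14424 and g9324. Model g14424 had 287, 366 and 307 CPM in the sexual pools, against 241, 241 and 203 CPM in the asexual pools, a ratio of 1.402. Model g9324 had 318, 292 and 272.0 CPM in the sexual pools, against 230.0, 209 and 188 CPM in the asexual pools, a ratio of 1.405. Both stood clear of the asexual pools, by 1.19 times in g14424 and 1.18 times in g9324 between the lowest sexual and the highest asexual pool.

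**Figure D2:**
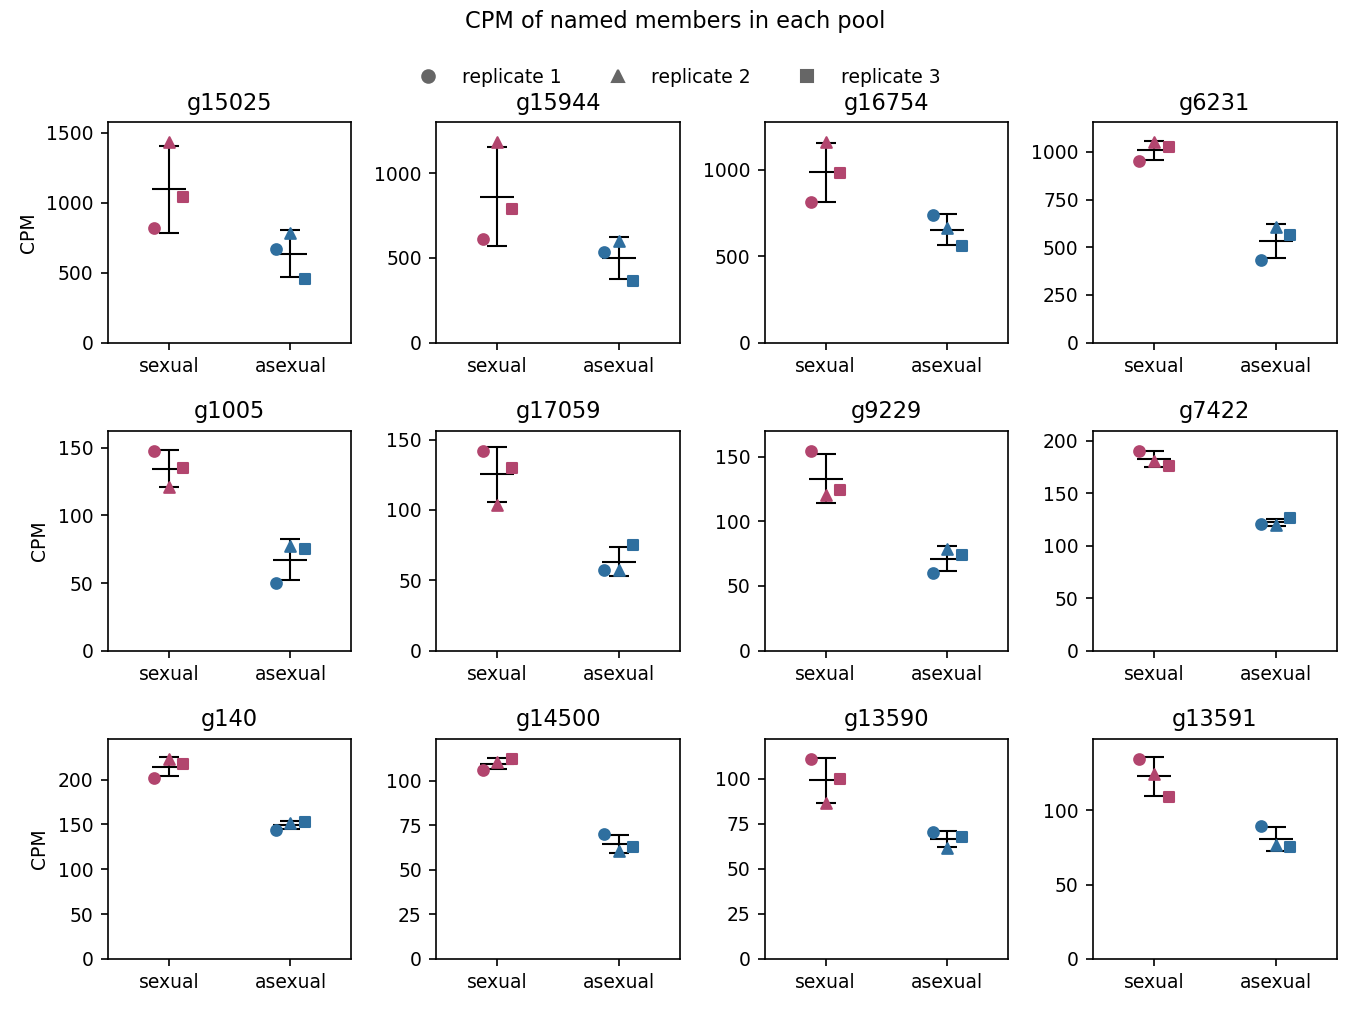
CPM of 12 named members in the 3 sexual (dark pink) and 3 asexual pools (blue), each panel with its own linear axis from 0. Symbols stand for replicate numbers, long horizontal bars for means and error bars for SD of 3 pools. In g7422, g140 and g14500 the pools of a population sit close together, whereas in g15025 and g15944 sexual replicate 2 lies far above its sister pools.

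The models nearest to each limit were compared across it. At the lower ratio limit, g5917 was just outside with 618, 568 and 583 CPM in the sexual pools, against 417, 426 and 420.4 CPM in the asexual pools, a ratio of 1.3998, beside 1.402 in g14424. Its lowest sexual pool was 1.33 times its highest asexual pool, above the median of the members for that measure (1.22). At the upper limit, g17801 was outside with a ratio of 2.05, beside 1.998 in g1005. At the level limits, g13610 (81.2 CPM) was inside and g11893 (78.9 CPM) outside, and g15025 (866 CPM) was inside and g1256 (1096 CPM) outside.

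Model g13610 had 108, 82.6 and 98.8 CPM in the sexual pools, against 62.2, 63.3 and 72.8 CPM in the asexual pools. Model g1256, above the level window, had 1128, 1715 and 1189 CPM in the sexual pools, against 905, 978 and 663 CPM in the asexual pools. Its sexual replicate 2 was high and its asexual replicate 3 low, as in g15025.

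At the limit set by overlap, g8234 was the closest member, with 96.0, 158 and 134 CPM in the sexual pools, against 95.7, 91.9 and 84.6 CPM in the asexual pools. Its lowest sexual pool was only 1.003 times its highest asexual pool. Model g432 was left out with 106, 85.0 and 109 CPM in the sexual pools, against 59.9, 62.5 and 87.5 CPM in the asexual pools, because asexual replicate 3 lay above sexual replicate 2. Over the 56 members the lowest sexual pool was 1.00 to 1.58 times the highest asexual pool, with a median of 1.22. This gap was under 1.1 times in 13 members, at least 1.2 times in 34 and at least 1.4 times in 8. Setting exact 95% Poisson intervals around the counts, the lowest sexual interval lay above the highest asexual one in 43 of the 56 members, and in 137 of all 2339 models of the window (5.86%). Members were chosen for lying apart, so nothing is read from that count. The intervals take in the error of counting alone, and PCR copies were not told apart from separate molecules.

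All 56 members entered the fit across 11700 models, with fold changes taken as sexual over asexual. Of all models fitted, 709 (6.06%) were called higher in sexual females (edgeR's quasi-likelihood test, Benjamini-Hochberg adjusted p below 0.05), and 53 of the 56 members were among them. As the members were chosen on this contrast, nothing is read from that count. The 3 members not called were g8234, g6490 and g15944, which had the smallest gaps between populations. Fitted log2 fold changes of members ran from 0.48 to 0.99, with standard errors of 0.08 to 0.24 (median 0.12). Against a 1.2-fold change, 365 models (3.12%) and 28 members were called higher in sexual females. Of the members, 34 were called without asexual replicate 2, 38 without sexual replicate 3 and 19 without both sexual replicate 3 and asexual replicate 1. Against the 1.2-fold change, 9 were called without asexual replicate 2, 14 without sexual replicate 3 and 11 without both sexual replicate 3 and asexual replicate 1. The shares of all models called with libraries left out are not given, so nothing is read from these counts.

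Pools of the same population lay far apart in many members. The coefficient of variation (CV, the SD of 3 pools as a percentage of their mean) had a median of 14.4% in sexual pools and 10.4% in asexual pools over the members. Over the 2283 other models of the window the medians were 7.89% in sexual and 6.97% in asexual pools. Over 287 window models that also had separate populations, with the sexual one higher but a ratio under 1.4, they were 5.55% in sexual and 4.62% in asexual pools. Over the 14 window models with separate populations, the sexual one higher, and a ratio of 2 or more, they were larger than in the members, at 16.7% in sexual and 26.6% in asexual pools. Counting alone would give members a median of 2.20% in sexual and 2.83% in asexual pools. The pooled CV of both populations was above the median of the other models in 49 members and above their upper quartile in 34. Without sexual replicate 3 the median CV of members in sexual pools was 17.1%, and without asexual replicate 1 that in asexual pools was 8.05%. The condition of no overlap admits a wider spread at a larger ratio, so the choice of members bears on these values, and they were not tested.

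**Figure D3:**
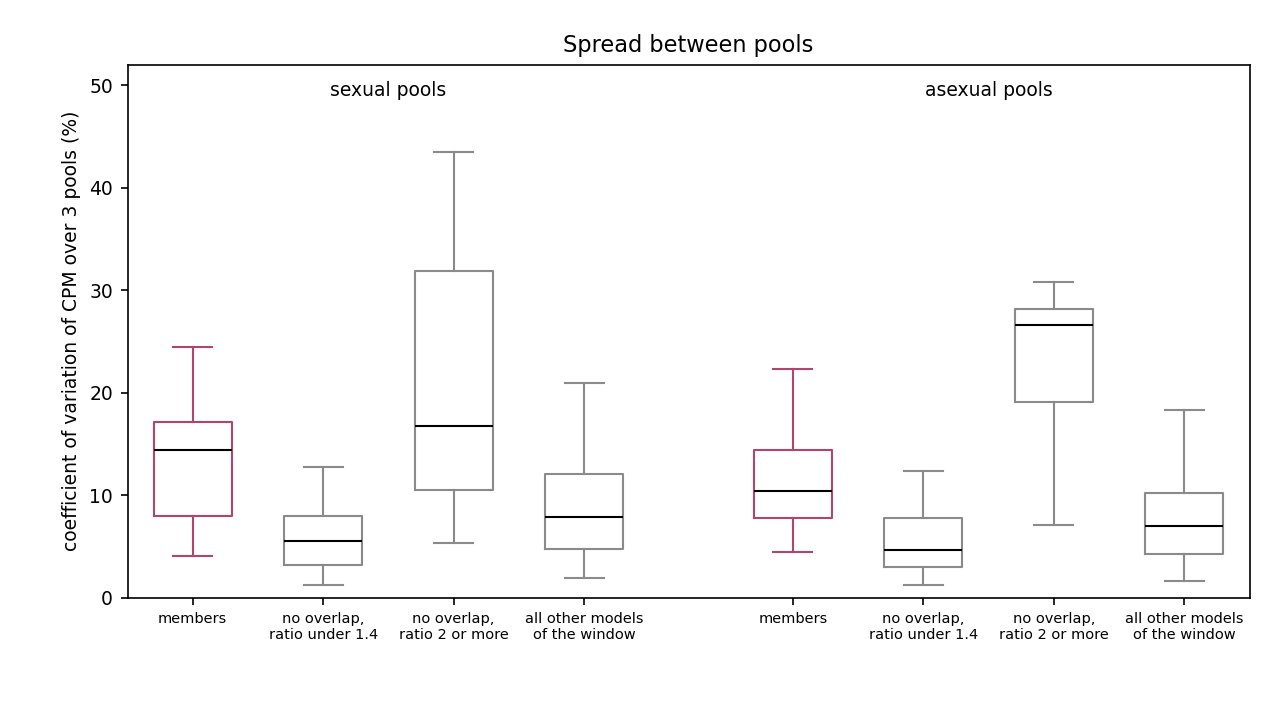
Coefficient of variation of CPM over the 3 pools of each population, in percent, for 56 members (dark pink), 287 window models without overlap at a ratio under 1.4, 14 without overlap at a ratio of 2 or more and all 2283 other models of the window (grey). Boxes span the quartiles with the median as a black line, and whiskers run from the 5th to the 95th percentile. The members' medians of 14.4% in sexual and 10.4% in asexual pools lie above those at a ratio under 1.4 and of all other models, and below those at a ratio of 2 or more.

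The steadiest members were g7422, g140 and g14500, by pooled CV. Model g7422 had 191, 181 and 176 CPM in the sexual pools, against 121, 119.6 and 126 CPM in the asexual pools, with means of 182 ± 7.43 CPM in sexual and 122 ± 3.34 CPM in asexual pools (SD, n = 3 each). Model g140 had 202, 223 and 218 CPM in the sexual pools, against 144, 151 and 153 CPM in the asexual pools. Model g14500 had 106, 110.4 and 112 CPM in the sexual pools, against 69.9, 60.6 and 62.6 CPM in the asexual pools. In these models the distance between the populations was several times the spread within them, and 1.52 times separated the lowest sexual from the highest asexual pool of g14500.

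The least steady members were g15944, g15025 and g6490. Model g15944 had 614, 1182 and 791 CPM in the sexual pools, against 532, 602 and 365 CPM in the asexual pools, with means of 862 ± 291 CPM in sexual and 499.7 ± 122 CPM in asexual pools (SD, n = 3 each). Model g6490 had 132, 249.7 and 194 CPM in the sexual pools, against 130.1, 127 and 112 CPM in the asexual pools. In both, sexual replicate 2 was far the highest and sexual replicate 1 lay just above the asexual pools. The CV of g6490 was 30.8% in sexual and 7.98% in asexual pools. Leaving out sexual replicate 2 lowered the median CV of members in sexual pools to 8.37%, from 2 pools.

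Differences between pools were compared across the 2 populations. Across all models fitted, the deviations of sexual replicate 2 and asexual replicate 1 from their population means had a correlation of 0.31, and those of sexual replicate 1 and asexual replicate 3 had 0.29. These pools were therefore set against each other within each population, a choice made after seeing the data. Sexual replicate 2 exceeded sexual replicate 1 and asexual replicate 1 exceeded asexual replicate 3 in 25 members, called the first kind here. Both differences went the other way in 17 members, the second kind, and they had opposite directions in 14. The first kind made up 44.6% of the members and 37.4% of the other models of the window, and the second kind 30.4% and 34.6%. The 2 differences thus shared a direction in 42 of 56 members (75%), against 1645 of the 2283 other models of the window (72.1%). With asexual replicate 2 in place of asexual replicate 1, the shares were 71.4% of members and 66.7% of the other models.

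The size of these differences was larger at the median in members than in the other models, which was not tested. It was measured on the log2 scale, with a median of 0.35 between sexual replicates 2 and 1 and 0.28 between asexual replicates 1 and 3 over the members. Over the other models of the window it was 0.17 in the sexual and 0.15 in the asexual pools. Across the 56 members the 2 differences had a Pearson correlation of 0.67 and a Spearman correlation of 0.67. Across the other models these were 0.48 and 0.64. The points share the same 4 libraries and their scaling, and genes are not independent replicates, so the correlations are descriptions.

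**Figure D4:**
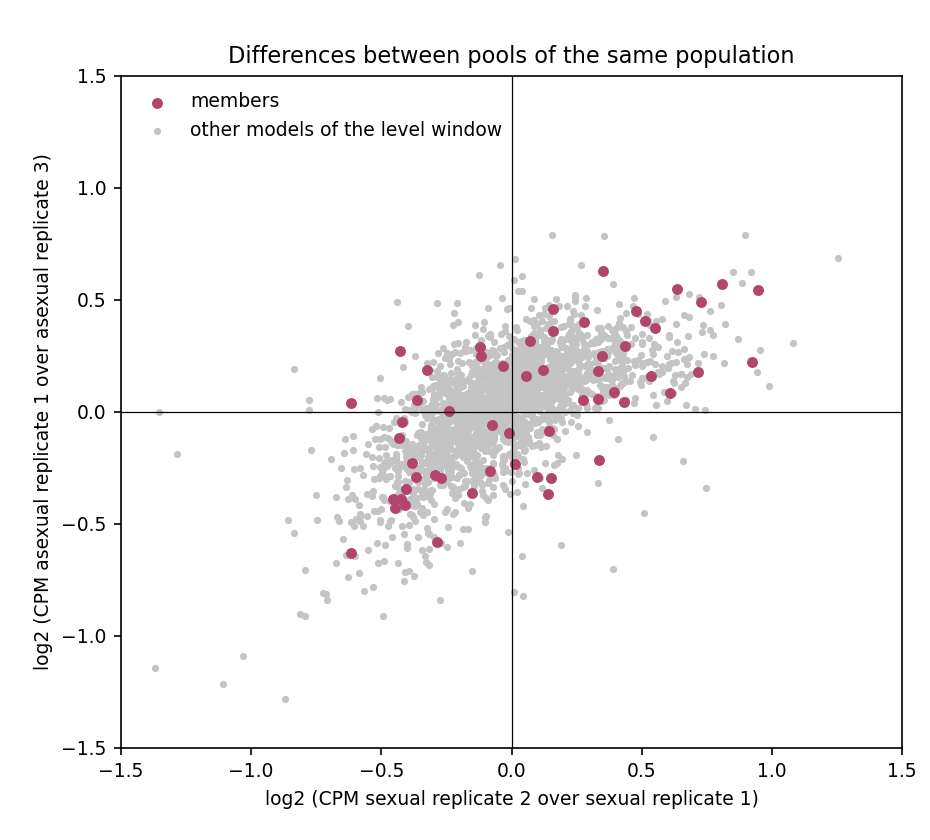
Log2 ratio of CPM between sexual replicates 2 and 1 (horizontal) and between asexual replicates 1 and 3 (vertical), for 56 members (dark pink) and the other models of the level window (grey; 5 lie outside the axes). Of the members, 25 (44.6%) lie in the upper right quadrant, 17 (30.4%) in the lower left and 14 (25%) in the remaining quadrants. The other models are placed much alike, with 37.4%, 34.6% and 27.9%.

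In the 25 members of the first kind the median level, relative to the mean of each model, was 1.06, 1.41 and 1.197 in the sexual pools (in replicate order) and 0.83, 0.83 and 0.71 in the asexual pools. In the 17 members of the second kind it was 1.33, 1.07 and 1.27 in the sexual pools and 0.69, 0.78 and 0.85 in the asexual pools. The median ratio of sexual over asexual was nearly the same in both kinds, 1.52 in the first and 1.51 in the second. Models g1005, g17059 and g9229, whose values are given above, were all of the second kind.

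Members with many reads were mostly of the first kind. Of the 11 members at 400 CPM or more, 8 were of the first kind (g15944, g16754, g271, g273, g12325, g12913, g15025 and g15703), 1 was of the second (g15426) and 2 had opposite directions (g9960 and g6231). Among the 247 other window models of that level, 118 (47.8%) were of the first kind and 27.9% of the second, so the first kind was the more common there too. The 11 members are few and include the near neighbours g271 and g273, and the difference was not tested. The 45 members under 400 CPM were divided almost evenly, with 17 of the first kind, 16 of the second and 12 with opposite directions. At all levels together, 37.4% of the other window models were of the first kind and 34.6% of the second. Their shares under 400 CPM alone are not given. In 7 of the 11 the sexual pools ran in the order replicate 2, 3, 1 from high to low and asexual replicate 3 was the lowest asexual pool. This full order was found in 18 of all 56 members (32.1%) and in 19.2% of the other models of the window, at all levels. Its share among the other models of 400 CPM or more is not given. Of the 11 members, g271, g273, g12325, g12913, g15703 and g15426 were picked after their values were seen.

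**Figure D5:**
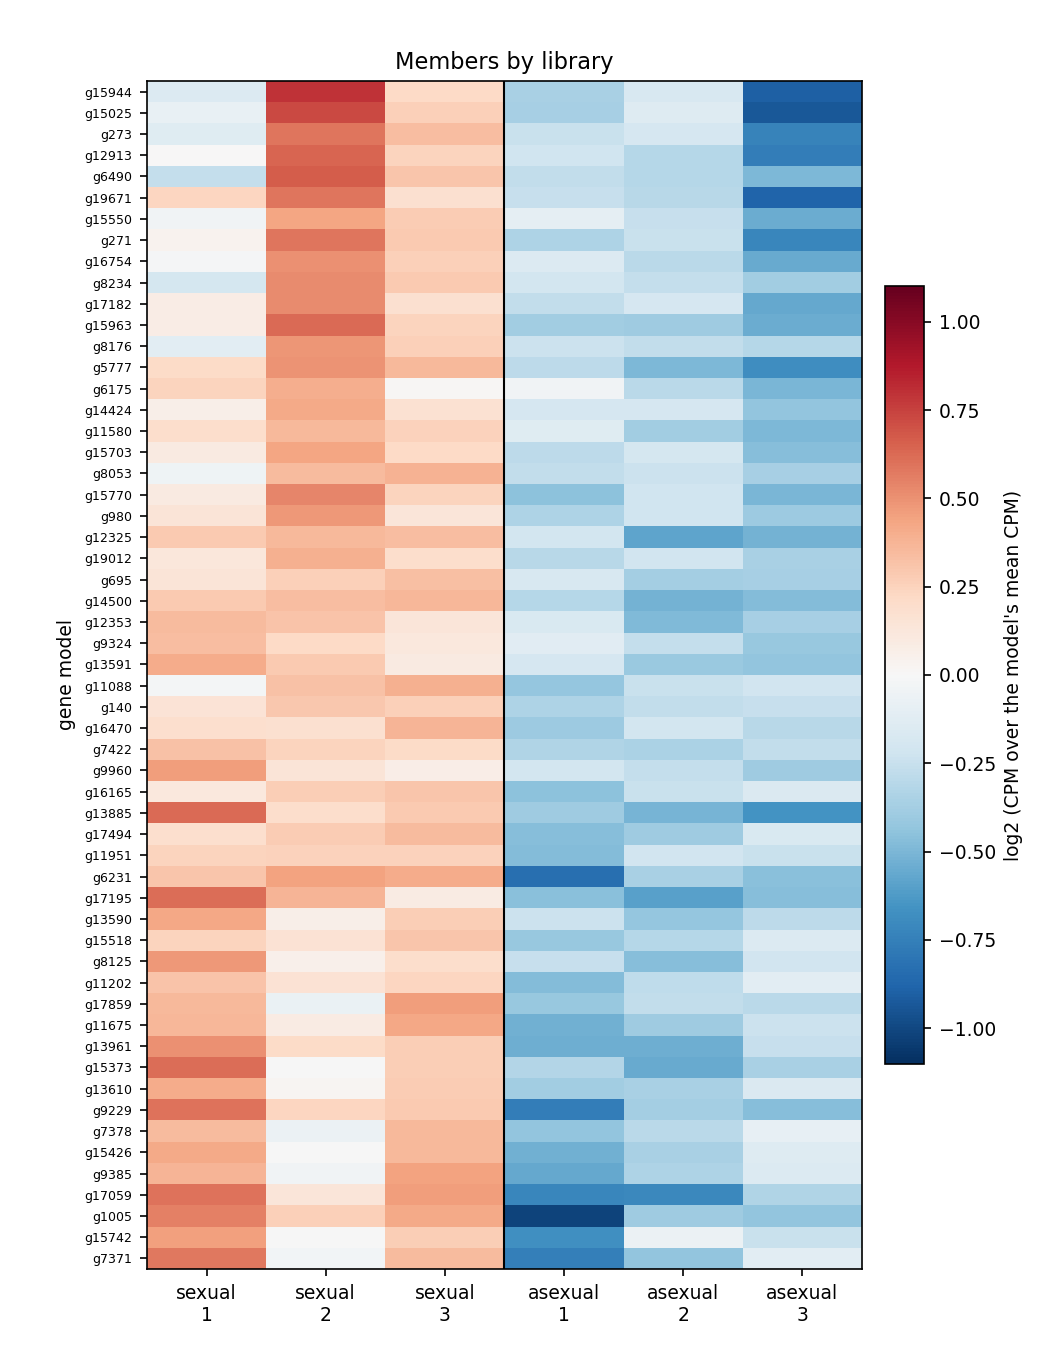
Log2 of CPM over the mean CPM of each model, for the 56 members (rows) in the 3 sexual and 3 asexual libraries (columns). Rows are sorted by the sum of the 2 log2 ratios between pools of a population. At the top sexual replicate 2 is highest and asexual replicate 3 lowest, and at the bottom sexual replicate 1 is above sexual replicate 2 and asexual replicate 1 below asexual replicate 3.

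Few members were neighbours in the table, and no source used here says whether its rows follow the genome. The only members in adjacent rows were g13590 and g13591. Model g13590 had 111, 86.4 and 99.7 CPM in the sexual pools, against 70.2, 61.5 and 67.7 CPM in the asexual pools. Model g13591 had 135, 124 and 109 CPM in the sexual pools, against 89.7, 76.8 and 75.5 CPM in the asexual pools. Their log2 ratios differed by 0.03, and sexual replicate 1 and asexual replicate 1 were the highest pools of their populations in both.

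Members g271 and g273 were separated only by g272, which had 35 counts over the 6 libraries and did not pass the count filter. Model g271 had 562, 822 and 665 CPM in the sexual pools, against 431, 462 and 332 CPM in the asexual pools. Model g273 had 439.9, 729 and 611 CPM in the sexual pools, against 408, 425 and 290.3 CPM in the asexual pools. The order of the 6 pools was the same in both, and sexual replicate 1 was closer to the asexual pools in g273 than in g271. Whether such pairs are parts of the same gene or share reads was not tested.

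By identifier, members made up 2.17% of the window models numbered 1 to 2000 (6 members), 2.04% of those from 5501 to 10000 (15 members), 1.87% from 10001 to 15000 (15 members) and 3.81% from 15001 to 20000 (20 members). Together the members held 1.58%, 1.81% and 1.64% of the counts of sexual replicates 1, 2 and 3, and 1.08%, 1.101% and 0.98% of those of asexual replicates 1, 2 and 3. The means were 1.68% ± 0.12 in sexual and 1.05% ± 0.06 in asexual libraries (SD, n = 3 each), and the 11 members of 400 CPM or more held 48.7% to 55.0% of the members' counts in sexual and 47.8% to 52.8% in asexual libraries. The 49 models of the reversed rule held 1.08% ± 0.04 of the counts in sexual and 1.79% ± 0.14 in asexual libraries (SD, n = 3 each).

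The pools of members and of models of the reversed rule stood in different orders. The median CV over the 56 members, given above as 14.4% in sexual and 10.4% in asexual pools, stood beside 7.83% in sexual and 9.84% in asexual pools over the 49 models. The 2 differences between pools shared a direction in 42 of the 56 members (75%), in 19 of the 49 models (38.8%) and, as given above, in 72.1% of the 2283 other models. Asexual replicate 1 was the highest asexual pool in 23 of the 56 members (41.1%), in 39 of the 49 models (79.6%) and in 39.3% of the 2283 other models of the window. Sexual replicate 3 was the lowest sexual pool in 9 of the 56 members (16.1%), in 26 of the 49 models (53.1%) and in 24.6% of the 2283 other models. The rules that chose these groups use the same libraries in opposite directions, and the difference between the groups was not tested.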

How the data were processed

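The authors deposited raw read counts per gene model for 6 libraries. Trimmomatic, HISAT2 and DESeq2 were used, per the submitters' processing notes, with no role or version attached. How reads were counted, with which strand setting, and on which annotation and build is not given in the sources used here. Whether reads of overlapping and antisense models were kept apart is therefore not known. Columns were matched to libraries by the ends of their source names, and all source names carry the same run and lane. Each library was assigned by the group in its label.

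The members were found on CPM from column totals. The members, lists and tests were chosen with earlier results of these data known. Models were tested with edgeR 4.0.16 (quasi-likelihood F test, limma 3.58.1, R 4.3.3) with TMM factors, filterByExpr defaults and population as the only term, with Benjamini-Hochberg adjustment over 11700 models. Standard errors were taken from each log2 fold change and its F statistic (estimate over root F). A second test was made against a 1.2-fold change (glmTreat). The fit was tested on simulated data. Tables were handled with pandas 2.3.3, NumPy 2.4.6 and SciPy 1.17.1.

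No 2 pools of a population were alike within sampling noise (a chi-square statistic of 8.45 to 22.0 per degree of freedom), and all 6 were kept. The statistic was largest between sexual replicates 1 and 2 (22.0) and smallest between asexual replicates 1 and 2 (8.45). The p-values set the difference between populations against the spread between pools. Members were named by level, ratio, spread, closeness to a limit and adjacency. Marker lists could not be applied to unnamed models. Alternatives were other scaling factors and filters, DESeq2 1.42.0, limma-voom, a replicate block and leaving out libraries.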

Additional observations from a re-analysis of the deposited data

How the results depend on the processing

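The count of 53 called members was 51 to 56 under other scaling factors, other filters, limma-voom and DESeq2, and 29 at an adjusted p under 0.01. With a library left out it was 34 to 52, and without both sexual replicate 3 and asexual replicate 1, a setting added after seeing the data, it was 19. Against a 1.2-fold change the 28 called members became 9 to 38 without a library and 11 without both. Against a 1.5-fold change edgeR called 0 members and 198 of all 11700 models higher in sexual females, at an adjusted p below 0.05. At an unadjusted p under 0.05 in that test there were 12 members. The number of all models at the unadjusted cut is not given, so nothing is read from the 12. No other tool was run against that change. With a replicate block 49 members were called, and 24 against the 1.2-fold change. Apart from the 198 models called against the 1.5-fold change, the share or number of all models called is not given for these other settings. The members were chosen on this contrast, so nothing is read from how far their counts held or fell. Same-numbered pools had correlations of deviations of -0.22, 0.0094 and 0.042, and 0 libraries correlated best with their own number, so the numbers were not taken as pairs. The rule chose 51 models on TMM-scaled CPM (all 51 of them members), 57 with DESeq2 size factors (55 members), 98 with a ratio from 1.3, 31 from 1.5, and 52 to 82 without a library, of which 42 to 51 were members. Without sexual replicate 3 and asexual replicate 1 it chose 57, of which 40 were members. The median log2 ratio of the 56 members was 0.58 to 0.65 on TMM-scaled CPM, with each library left out and without both. Single models moved more. Among 18 members named by level, ratio, spread, closeness to a limit or adjacency, the log2 ratio ran from 0.34 to 1.12. The lowest was g8234 without sexual replicate 2 and the highest g17059 without asexual replicate 3. The median CV of the 56 members was 8.37% to 17.1% in sexual pools and 7.19% to 13.5% in asexual pools with a pool left out. Each came from 2 pools, and the cause was not tested. Outside the 10 most abundant models the members held 1.91% of the counts in sexual and 1.21% in asexual libraries, by construction of the smaller total. Among models that passed the count filter 2 pairs of members were neighbours. Each member had 463 counts or more in every library. The level and ratio limits of the rule largely fixed this in advance, so nothing is read from it about depth.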
